A study of Brachypodium distachyon with 6 samples.

Results

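In roots of *B. distachyon* Bd21, 138 of 19538 listed genes had less than 1 RPM in every library of intact plants, at least 1 RPM in every library of pruned plants, and a mean at least 2 times higher in pruned roots. RPM is the number of reads of a gene per 1000000 reads counted on the listed genes of that library. These 138 genes were 0.706% of the table. They were chosen by their values in both groups, so the levels and ratios below describe the choice and carry no test.

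*B. distachyon* is a small annual grass used as a model for cereals and forage grasses, and Bd21 is its reference inbred line. Seedlings of 2 weeks, grown in boxes on agar medium with sucrose, were cut with scissors so that a stub of each shoot remained, and uncut seedlings of the same boxes were the intact plants. Roots of both groups were collected 2 days after cutting, with 3 libraries per group. The paper calls the replicates biological. Neither its methods nor the labels say whether replicates came from separate boxes or how many plants were pooled. How independent the libraries are is therefore not known. Nothing but the cutting differs between the groups by their labels, and the roots themselves were not cut. All 6 libraries are of whole roots at 1 time, from 1 genotype on 1 medium.

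When a grass is grazed or mown, the shoot loses leaf area that supplied the root with sugar, while growth from the base of the leaves and from tillers draws on reserves. Signals of wounding, among them jasmonates and electrical and calcium waves, travel within the plant and alter transcription in organs that were not wounded. In a bulk library, a low level can be a few transcripts in every cell or many transcripts in a few cells, and a change in cell numbers and a change in RNA per cell cannot be told apart.

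Library totals were 18150223 to 21292543 reads in intact roots and 17278649 to 28420464 in pruned roots, so 1 RPM was 17.3 to 28.4 reads. The other 4 libraries are paired-end, but only the R1 reads of pruned replicates 2 and 3 were used. No gene is listed that reaches 1 RPM in fewer than 3 libraries. All 138 genes therefore passed into the table through the pruned libraries alone, and a gene below 1 RPM in intact roots and in any pruned library is not listed. RPM is not divided by gene length, so an order of genes by RPM is an order by reads and not by transcript number.

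Few of these genes could be called silent in intact roots. Of the 138, 130 had reads in every intact library, 8 had none in at least 1 of them, and 1 (Bradi2g23376) had none in any. In 79 genes the intact mean was already at least 0.5 RPM. The median over the genes was 0.534 RPM for the intact mean (range 0 to 0.942) and 1.65 RPM for the pruned mean (1.06 to 15.9). In reads, the median was 9 per intact library and 41 per pruned library. The ratio of means had a median of 3.23 over the 137 genes with reads in intact roots, from 2.02 to 121. A ratio of at least 4 was found in 52 genes, at least 8 in 28 and at least 16 in 16, counting Bradi2g23376 with the highest. In 55 genes the ratio was below 3. Over all listed genes, 3.43% had a ratio of at least 2, and 1.84% had an intact mean below 1 RPM with a pruned mean of 1 RPM or more. The bulk of the genes thus went from a low level to a slightly less low one, and 73 of them stayed below 2 RPM in all pruned libraries.

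**Figure D1:**
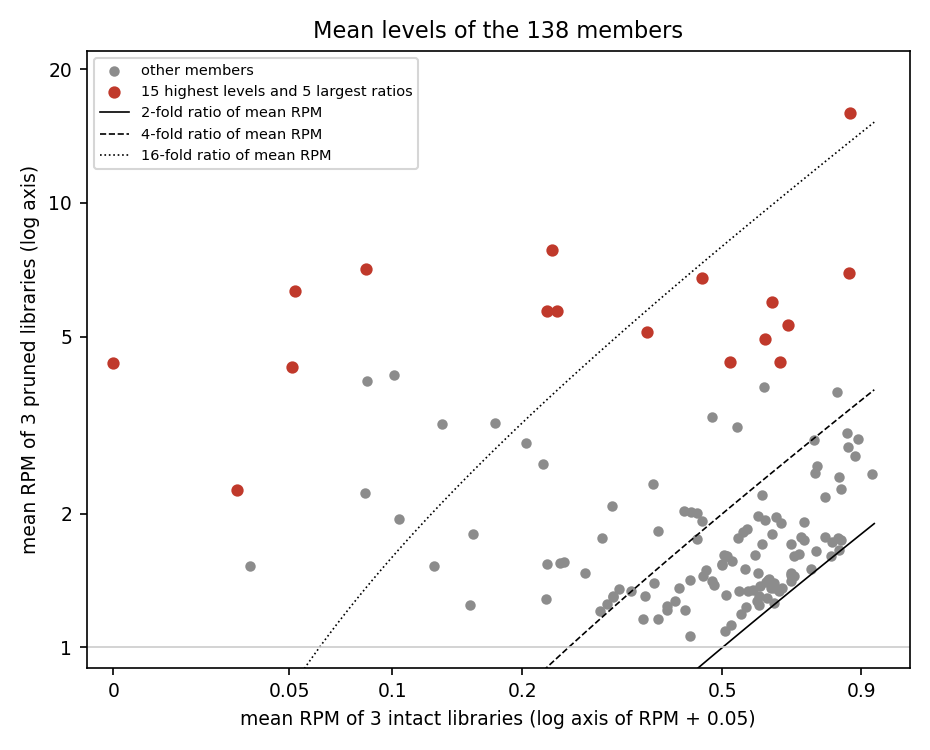
Each point is 1 of the 138 genes, with the mean RPM of 3 intact libraries on the x axis (log axis of RPM + 0.05) and the mean RPM of 3 pruned libraries on the y axis (log axis); lines mark ratios of 2, 4 and 16, and red points are the 17 genes with the 15 highest levels or 5 largest ratios. Most points crowd between 0.3 and 0.9 RPM in intact roots and below 2 RPM in pruned roots, while the red points lie above 2 RPM.

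Together the 138 genes took 70.5, 67.0 and 69.5 RPM in the 3 intact libraries and 338, 311 and 312 RPM in the 3 pruned libraries. The sums were 69.0 ± 1.82 and 320 ± 15.6 RPM (SD, n = 3), a ratio of 4.64. The 15 genes with the highest pruned means made up 36.0% of the difference between the sums. The groups do not overlap in the sum or in any of the genes, which the choice of genes fixes. Over all listed genes, every pruned library lay above every intact library in 33.4%.

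On log2(RPM + 0.5), the scale of the fit over all genes, the median difference of the 138 genes was 1.10 (0.67 to 3.67), beside 0.04 for all listed genes. By limma, taking an adjusted p up to 0.05 together with a 2-fold change on this scale, 86 of the 138 genes were called higher in pruned roots, and 2.54% of all genes; in the other direction, 0 of the 138 and 1.72% of all genes were called. Without the fold change, all 138 were called higher, beside 30.1% of all genes. The 52 lost to the fold change had ratios of 2.02 to 3.30 and differed by less than 2-fold after adding 0.5 RPM. On the recovered reads, 133 were called by the edgeR quasi-likelihood test, with 3.08% of all genes, and 134 by DESeq2, with 3.02% of all genes. These counts restate the choice of genes and nothing is read from them. By counting error alone, the lower 95% bound of the ratio of pooled reads was above 1 for all 138 genes and above 2 for 80. The choice of genes largely sets these counts too, and the share over all genes was not taken.

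The genes closest to silence in intact roots were 10 with at most 3 reads in each intact library, and 5 of them also had the largest ratios. Bradi2g23376 had no read in any of the 3 intact libraries, where the limit that a count of 0 allows, 3 reads per library, is 0.141 to 0.165 RPM. In pruned roots it had 71, 133 and 115 reads, or 4.11, 4.68 and 4.34 RPM. Its level was at least 28.2-fold higher in pruned roots, taking 3 reads in each intact library.

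Bradi1g21095 had 1, 0 and 2 reads in intact roots and 120, 151 and 180 reads in pruned roots. The latter are 6.95, 5.31 and 6.79 RPM, with a ratio of means of 121 (95% exact counting interval of the pooled reads 41.2 to 590). Bradi5g17075 had 1, 2 and 0 reads in intact and 82, 111 and 110 reads in pruned roots (ratio 83.4, interval 27.6 to 397). The wide intervals come from the 3 reads that each of these genes had in all intact libraries together, and the upper bounds are not well set by these data.

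Bradi1g42516 had 2, 2 and 1 reads in intact and 161, 174 and 155 reads in pruned roots (ratio 83.3, interval 33.6 to 244). Bradi1g20950 had 2, 0 and 0 reads in intact and 36, 72 and 57 reads in pruned roots (ratio 72.0, interval 18.1 to 554). The other 5 genes with so few reads in intact roots, described after their values were seen, were Bradi1g13040, Bradi3g47745, Bradi1g35285, Bradi2g54400 and Bradi1g22525. Bradi1g13040 went from 0.0858 ± 0.0293 to 3.98 ± 0.30 RPM (SD, n = 3), with 5 reads in all intact libraries and 290 in all pruned libraries. Bradi3g47745 had 2 reads in intact roots, all in replicate 2, and 29, 36 and 43 reads in pruned roots (ratio 42.9, interval 11.8 to 364). The remaining ratios were 40.7 for Bradi1g35285, 26.4 for Bradi2g54400 and 18.7 for Bradi1g22525. At this depth none of the 10 genes can be called absent from intact roots.

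The 15 genes with the highest RPM in pruned roots share 3 genes with the 5 of the largest ratio, Bradi2g23376, Bradi1g21095 and Bradi1g42516. Bradi1g18260 stood first, with 0.845, 0.905 and 0.826 RPM in intact roots and 16.4, 15.7 and 15.5 RPM in pruned roots. It was the only 1 of the 138 genes with a pruned mean above 10 RPM. Its intact mean was close to the limit of the choice, at 0.859 ± 0.0408 RPM, so its ratio of 18.5 rests on 15 to 18 reads per intact library and 284 to 447 per pruned library. The pruned libraries of this gene differed by no more than counting error gives (chi-square per degree of freedom 0.282).

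Bradi1g42513 was second, with 0.0939, 0.213 and 0.386 RPM in intact roots and 11.5, 5.35 and 6.71 RPM in pruned roots. Its pruned replicate 1 was well above the other two, and its ratio of means was 34.0. Bradi4g01480 had 0.892, 0.905 and 0.771 RPM in intact and 6.89, 7.64 and 6.30 RPM in pruned roots (ratio 8.11). Bradi4g07130 had 0.564, 0.426 and 0.386 RPM in intact and 6.60, 7.14 and 6.60 RPM in pruned roots (ratio 14.8). In the latter genes the 3 pruned libraries lay close together.

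Bradi3g38147 went from 0.188, 0.160 and 0.331 RPM to 6.13, 5.07 and 5.92 RPM, and Bradi1g59790 from 0.329, 0.160 and 0.220 RPM to 5.90, 6.12 and 5.09 RPM. Both had means of 5.71 RPM in pruned roots, and their ratios were 25.3 and 24.1. Bradi3g36347 had 0.376, 0.479 and 0.220 RPM in intact and 5.79, 4.93 and 4.64 RPM in pruned roots (ratio 14.3). Bradi3g16645 had a mean of 0.620 ± 0.0924 RPM in intact and 5.99 ± 0.828 RPM in pruned roots (ratio 9.67). The rest of the 15 highest genes had intact means of 0.516 to 0.661 RPM and ratios of 6.86 to 8.49, apart from Bradi1g42516, Bradi1g21095 and Bradi2g23376 above. They were Bradi1g24667 (pruned mean 5.30 ± 0.785 RPM), Bradi5g14010 (4.95 ± 1.02 RPM), Bradi2g60490 (4.39 ± 0.514 RPM) and Bradi1g62990 (4.38 ± 0.368 RPM).

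**Figure D2:**
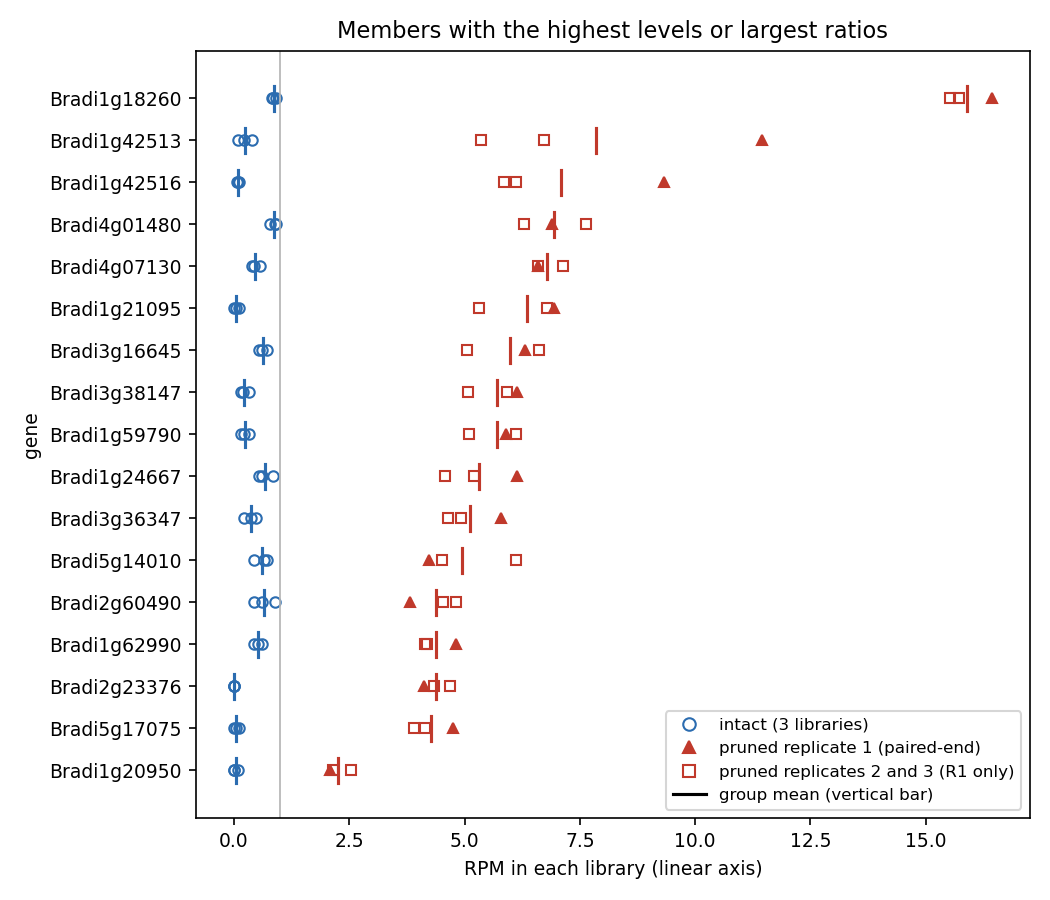
RPM of the 17 genes with the highest levels or largest ratios in each library (linear x axis), with blue circles for 3 intact libraries, a red triangle for the paired-end pruned replicate 1, red squares for pruned replicates 2 and 3, and a vertical bar at each group mean; the grey line marks 1 RPM. Bradi1g18260 stands apart at 15.5 to 16.4 RPM in pruned roots, and in Bradi1g42513 and Bradi1g42516 the triangle lies to the right of both squares.

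Locus identifiers of *B. distachyon* number the genes along each chromosome, which gives the order of the genes although no coordinates were used here. The 138 genes were spread over all 5 chromosomes. Chromosome 1 held 35, chromosome 2 held 33, chromosome 3 held 34, chromosome 4 held 24 and chromosome 5 held 12. These were 0.605% to 0.787% of the listed genes of each chromosome.

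Next to each other in the order of listed genes were 3 pairs. Adjacent here means the next gene in the table, and loci that are not listed may lie between. Bradi1g42513 and Bradi1g42516 followed Bradi1g18260 in level in pruned roots, and both had few reads in intact roots. In the pruned libraries they had 11.5, 5.35 and 6.71 RPM and 9.32, 6.12 and 5.85 RPM, with replicate 1 the highest in both and the order of the other libraries reversed. Bradi3g16645 (ratio 9.67) lay next to Bradi3g16655, which had 0.611, 0.905 and 0.496 RPM in intact and 2.43, 1.37 and 1.32 RPM in pruned roots (ratio 2.55). Bradi4g28220 went from 0.235, 0.106 and 0.0551 RPM to 3.99, 3.17 and 2.38 RPM (ratio 24.1), while its neighbour Bradi4g28210 went from 0.704, 0.479 and 0.826 RPM to 1.22, 1.55 and 1.47 RPM (ratio 2.11). In these last pairs the partners thus differed widely in ratio. The sources used here do not state whether the reads were counted by strand, so reads of overlapping neighbours cannot be told apart.

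Bradi1g18260, the highest gene, and Bradi1g18240 lay on both sides of 1 listed gene, Bradi1g18250. Bradi1g18240 had 0.282, 0 and 0.331 RPM in intact and 1.68, 3.34 and 3.62 RPM in pruned roots (ratio 14.1). The gene between them had 18.1, 18.3 and 17.7 RPM in intact and 18.3, 15.3 and 15.3 RPM in pruned roots, with overlapping groups and a ratio of 0.905. Its flanking genes were hence higher in pruned roots while its own mean was not.

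**Figure D3:**
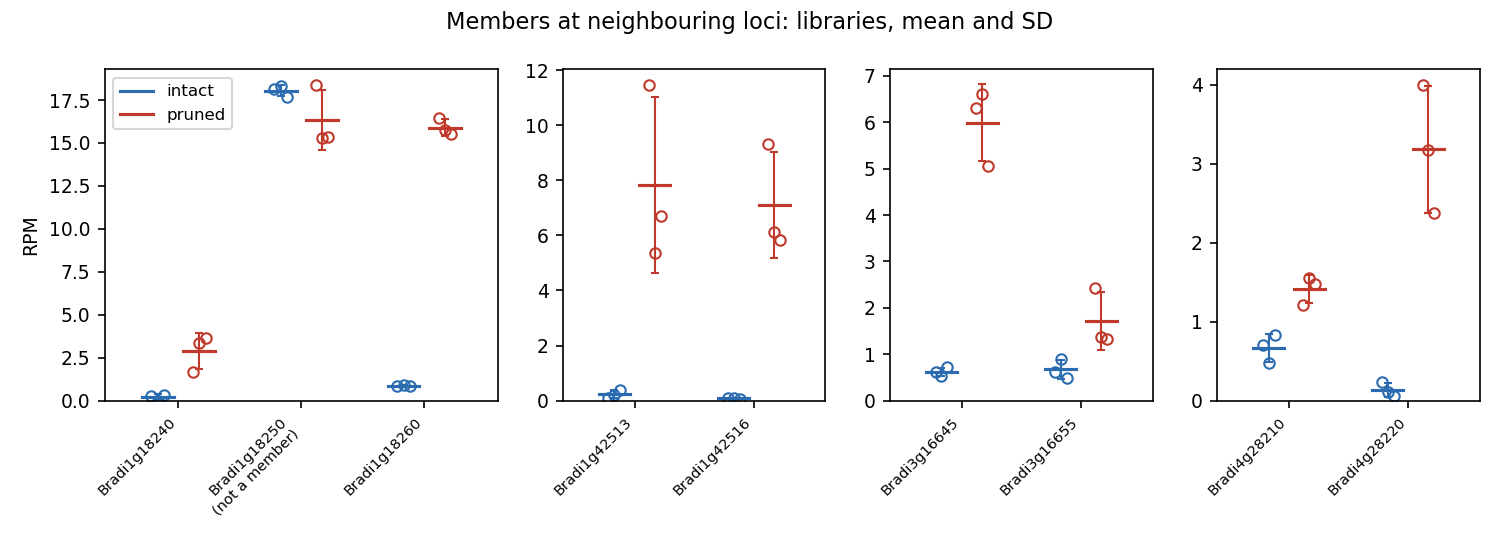
RPM in each library (circles), mean (bar) and SD (error bar, n = 3) of intact (blue) and pruned (red) roots for 4 groups of neighbouring genes, each panel with its own axis from 0. Bradi1g18250, not among the 138 genes, lies at 15.3 to 18.3 RPM in all 6 libraries between its neighbours, and Bradi1g42513 and Bradi1g42516 have their highest value in the same pruned library.

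Of the 138 genes, 9 (6.52%) had an adjacent gene outside the 138 that limma called higher, beside 4.10% of all listed genes. Counting the members of the pairs, 13 had an adjacent gene called higher (9.42%), beside 4.94% of all genes. The members of the pairs were chosen by the same contrast, so the choice partly sets this share. Bradi3g36330, next to Bradi3g36347, had 18.2, 16.8 and 19.4 RPM in intact and 65.9, 62.9 and 61.4 RPM in pruned roots. Bradi2g55250, next to Bradi2g55260, had means of 26.4 ± 1.70 RPM in intact and 82.1 ± 3.04 RPM in pruned roots. Bradi2g55260 itself went from 0.821 to 2.42 RPM, so its RPM was 3.11% of that of its neighbour in intact and 2.95% in pruned roots. Gene lengths scale this share alike in both groups. For Bradi3g36347 this share was 1.98% in intact and 8.07% in pruned roots. Bradi5g10135 likewise kept a like share of its neighbour Bradi5g10130 (10.4% and 10.6%). Whether reads of the neighbour were counted in these genes was not tested.

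Adjacent genes did not always move the same way. An adjacent gene called lower was found for 4 of the 138 genes, and 3.36% of all genes have such a neighbour. Bradi3g06780 went from 0.584 to 1.47 RPM between Bradi3g06757, which had 1.65 ± 0.383 and 5.05 ± 0.169 RPM, and Bradi3g06790, which had 16.1 ± 1.08 and 5.10 ± 0.454 RPM in intact and pruned roots (SD, n = 3). Over the 270 adjacent genes outside the 138, the median log2 difference was 0.12, beside 0.04 for all genes.

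A feature that the choice did not use is the last digit of the identifier. Genes of the first annotation carry identifiers ending in 0, and genes placed between them later end in other digits. Among the 138 genes 67 (48.6%) had an identifier not ending in 0, beside 28.1% of all listed genes. Of the 1867 listed genes whose mean over 6 libraries was below 2 RPM, however, 52.6% had such an identifier. Among the 46 genes of the mirrored choice, below 1 RPM in all pruned and at least 1 RPM in all intact libraries, it was 41.3%. A high share of identifiers not ending in 0 was thus found among genes of low level in general.

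Little can be said on the function of the 138 genes from the sources used here. Gene ontology (GO) terms came with identifier lists that were drawn from genes changed in these same libraries, some of them printed in part. Of the 138 genes, 5 (3.62%) stood in such a list, beside 1.52% of all listed genes, and nothing is read from this since both the lists and the 138 genes were chosen by their change. Bradi3g43870 stood under response to lipid and response to alcohol, headings that cover hormone responses such as that to abscisic acid. It had 0.235, 0.319 and 0.110 RPM in intact and 3.01, 2.43 and 2.34 RPM in pruned roots (ratio 11.7). Bradi2g55680 stood under generation of precursor metabolites and energy, the heading for respiration, glycolysis and photosynthetic energy capture, and had means of 0.447 ± 0.171 and 1.75 ± 0.275 RPM (ratio 3.92). The former was among the 22 genes with a ratio of at least 10.

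The other genes with a GO term had ratios close to the limit of the choice. Bradi2g53510 was listed under sequence-specific DNA binding transcription factor activity, that is, proteins that bind DNA motifs and regulate transcription, and had means of 0.603 ± 0.227 and 1.41 ± 0.138 RPM (ratio 2.33). Bradi4g28210 was listed under transfer of hexosyl groups, the attachment of sugars to other molecules, and under monocarboxylic acid metabolism. Bradi1g17670 was listed under membrane and had means of 0.607 ± 0.138 and 1.42 ± 0.106 RPM (ratio 2.34). None of these 3 genes was called by limma at 2-fold change on log2(RPM + 0.5).

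None of the 138 genes stood among the 12 genes listed under response to jasmonic acid or the 12 under response to wounding. Limma called 5 of the former higher and 1 lower, and 5 of the latter higher and 0 lower, beside 2.54% of all genes called higher and 1.72% called lower. The median log2 differences were 0.81 and 0.84, beside 0.04 for all genes, in lists drawn from genes changed in these same libraries. The absence of the 138 genes from these lists describes the lists as much as the genes, since 296 identifiers in all stood under the printed terms.

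Descriptions in supplementary gene lists are printed beside 24 of the 138 identifiers, 10 of them in the list of cytochromes, and Bradi2g55680 and Bradi2g53510 above are also among them. For 0 of these 24 entries does the printed fold change match the ratio of mean RPM of that identifier, within 0.1 or 10%, while 58 of 445 entries match overall. The descriptions were therefore not used, and no function is given from them. A fold change printed on another scale would also fail to match, so the descriptions are not shown to be wrong. The 24 genes had ratios of 2.10 to 83.3 (median 4.19), beside a median of 3.23 over the 137 genes with reads in intact roots. Bradi1g42516, Bradi4g01480, Bradi3g38147 and Bradi5g14010, described above, are among them.

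Of the others, Bradi1g35285 (0.101 to 4.10 RPM), Bradi3g48562 (0.599 to 3.86 RPM) and Bradi3g04493 (0.815 to 3.75 RPM) had the highest pruned means. Bradi1g22525, Bradi3g58715 and Bradi2g59830 had lower pruned means of 1.54 to 1.94 RPM, but ratios of 18.7, 6.83 and 6.44. Ratios of 3.13 to 4.85 were found for Bradi3g35450, Bradi3g17773, Bradi2g52101, Bradi3g52505 and Bradi2g07548. The lowest ratios, 2.10 to 2.61, were those of Bradi4g34195, Bradi1g65263, Bradi3g13494, Bradi2g60597, Bradi4g13320, Bradi1g07185 and Bradi1g07303.

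The 98 genes not under the highest levels, largest ratios or any list had intact means of 0.0355 to 0.887 RPM (median 0.534), pruned means of 1.06 to 3.98 RPM (median 1.55) and ratios of 2.02 to 46.4 (median 3.10). They make up most of the 138.

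The median chi-square per degree of freedom of the reads over the 3 pruned libraries was 0.768, where counting error alone gives a median of 0.693. It was 1.05 in 8996 other genes with pruned means in the same range, a comparison that the limits of the choice in each library affect. The coefficient of variation of the pruned libraries had a median of 13.8%, from 2.37% to 40.9%. At 5 or more per degree of freedom stood 5 genes, which were Bradi1g42513 (28.5), Bradi1g42516 (10.8), Bradi1g71377 (8.47), Bradi1g18240 (7.15) and Bradi4g11320 (5.06). Values this high were thus found in 3.62% of the 138 genes, beside 4.58% of the other genes in the range. Genes below this cut can still have replicate spread beyond counting error, and their share was not counted.

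In 4 of these 5 genes the paired-end pruned replicate 1 was the highest library. Its level was 1.90 times the mean of replicates 2 and 3 in Bradi1g42513, 1.56 times in Bradi1g42516, 1.75 times in Bradi1g71377 and 1.78 times in Bradi4g11320. Bradi1g18240 was the reverse, at 0.482 times. Over the 138 genes this ratio had a median of 1.07, and replicate 1 was the higher in 86 (62.3%), beside a median of 1.02 and 56.4% in the other genes of the range. In 11 genes replicate 1 was at least 1.5-fold higher and in 3 at least 1.5-fold lower. The share of other genes that differ this much was not taken, so nothing is read from these counts. Since 1 pruned library is paired-end, a difference by layout and a difference of that library cannot be told apart. All intact libraries are paired-end, so layout is also partly confounded with pruning. With read layout as a term, limma called 91 of the 138 genes higher, and 546 of all listed genes. The median log2 difference of the 138 genes was then 1.18, in place of 1.10.

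**Figure D4:**
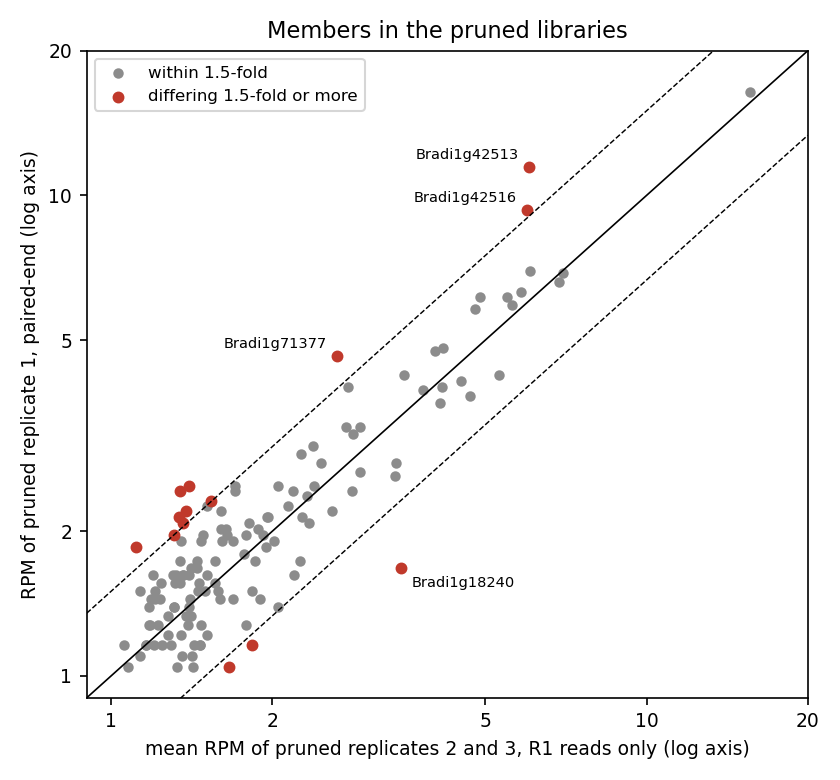
RPM of the 138 genes in the paired-end pruned replicate 1 (y axis) against the mean RPM of pruned replicates 2 and 3, which rest on R1 reads only (x axis), both on log axes; the solid line marks equal levels and the dashed lines a 1.5-fold difference. Red points, 11 above and 3 below the dashed lines, differ by 1.5-fold or more, and Bradi1g42513 and Bradi1g18240 lie farthest from the solid line.

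The limits of the choice run through a dense range of levels. Just inside, the highest intact library was at 0.992 RPM in Bradi5g10135, Bradi4g09132 and Bradi3g33760, and the lowest pruned library was at 1.02 RPM in Bradi4g18770, Bradi3g03450 and Bradi2g14940. The smallest ratios inside were 2.02 in Bradi1g22205 and Bradi3g08150 and 2.03 in Bradi3g33760. Just outside stood Bradi2g46665 and Bradi3g45100, with 1.01 RPM in an intact library, and Bradi2g36049, with 1.03 RPM. By the ratio, Bradi4g02220 (1.96), Bradi1g58560 (1.95) and Bradi4g07172 (1.95) stood just outside. In all, 186 genes passed both limits in RPM, and 48 of these had a ratio below 2.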

How the data were processed

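RPM of 19538 genes in 6 root libraries were deposited; the authors made them from trimmed reads (SolexaQA, cutadapt) mapped with TopHat and counted where uniquely mapped. The submitters' processing notes also name HTSeq. All values were whole multiples of 1 read (100% within 0.01 of a read), which gave the reads per gene and library.

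The fit used limma (version 3.58.1, R version 4.3.3, lmFit and eBayes with trend) on log2(RPM + 0.5). Its two-sided p-values were adjusted by Benjamini-Hochberg over 19538 genes. No gene failed a filter of 0.5 RPM in 3 or more libraries. Alternatives were DESeq2 1.42.0 and edgeR 4.0.16 on recovered reads, other pseudocounts, filters, scalings, limits and ratios, read layout or replicate number as a term, and each library left out. Tested on simulated data of 19538 genes with 200 changed 4-fold, limma recovered 200, edgeR 200 and DESeq2 199, with 0, 1 and 0 false calls. The changed genes were drawn from all levels, with a common dispersion, so this does not gauge calls of genes near 1 RPM. Intervals are exact, at 95%, and cover counting error only. Scripts ran in Python 3.11.15 (pandas 2.3.3, numpy 2.4.6, matplotlib 3.10.9, scipy 1.17.1).

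Named are the 15 genes with the highest pruned mean, the 5 with the largest ratio (no intact read counting as largest), those in lists of the study and 3 on each side of each limit, and others where said. No listed gene can fail the limit in pruned roots alone, so none is named outside it. Members and lists were chosen with earlier results of these data known. Lists by words of an annotation and cell type markers could not be applied, since the gene reference matched 0 of 19538 identifiers (assembly Brachypodium_distachyon_v3.0), so the tissue label was not checked and names, coordinates and sequences were not used here. Descriptions in the supplementary lists were not used where their fold changes did not match. Identifiers of these lists were still used, as printed, to name genes and to group them by list.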

Additional observations from a re-analysis of the deposited data

How the results depend on the processing

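The number of genes that pass the choice was 138 as reported, 83 with a ratio of 3 and 38 with a limit of 0.5 RPM. These 38 are among the 138 by construction, since the table lists only genes with 1 RPM in at least 3 libraries and a gene at 0.5 to 1 RPM in pruned roots cannot be seen. A limit of 2 RPM gave 135 genes, but 37 of them were among the 138. Leaving out 1 library in turn gave 136 to 158 genes, of which 127 to 137 were among the 138, and quantile normalization gave 94, all among them. Pruned replicate 1 alone as the pruned group gave 142, with 129 shared. Of the 138 genes, limma called 86, and 80 to 88 without 1 library. A pseudocount of 0.1 RPM gave 130 and a pseudocount of 1 RPM 49, beside 629 and 379 of all listed genes called higher. Quantile normalization gave 57, the edgeR quasi-likelihood test 133 and DESeq2 134, beside 397, 601 and 590 of all genes. At each of these settings the count over all genes moved the same way from its reported 496. The swing is therefore not particular to the 138 genes. A fold change threshold of 1.5 or none gave 138. A filter on the mean of 6 libraries at 1 RPM left 91 of the 138 genes in the test. Over all genes 833 were called (496 higher, 337 lower), 830 to 849 without 1 library, 2557 with a threshold of 1.5 and 9830 with none. With quantile normalization 51.0% of the calls were higher, in place of 59.5%.

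Same-numbered libraries deviated together with r = -0.03, 0.20 and 0.08, and libraries of unlike number with r from -0.21 to 0.12. With 3 libraries per group, these values cannot decide whether the numbers pair the samples. With replicate number as a block, 836 genes in all and 86 of the 138 were called. For 22 named genes under 17 alternatives each, 0 of the log2 fold changes changed sign, 1 fell below the threshold and 8 rose above it. The choice of genes largely fixes the sign, but the size moved. Its range over the alternatives was widest in Bradi2g23376 (2.42 to 9.56) and narrowest in Bradi4g28210 (0.533 to 1.05). Reads per intact library of the 138 genes ran from 0 to 21, with a median of 9, so ratios against the lowest of them are bounds or wide intervals, and reads of 1 pruned library weigh on Bradi1g42513 and Bradi1g42516.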
